A study of Mus musculus with 12 samples.

Results

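Zinc, copper and iron are carried across membranes by families of transport proteins, and 31 genes that encode such carriers are described here in mouse prostate. They were chosen by gene symbol from the zinc exporter (Slc30a) and zinc importer (Slc39a) families, the copper carriers Slc31a1, Slc31a2, Atp7a and Atp7b, and the iron carriers Slc11a2, Slc40a1 and Tfrc. All 31 were found among the 39179 genes of the deposited table, and 26 reached 4 on the log2 scale in 6 or more libraries and were tested. The prostates came from mice aged 4 months, hybrids of the strains 129/SvImJ and C57Bl/6J, and every mouse had been given paraquat, a herbicide that makes cells produce superoxide. They were wild type (6 libraries) or null for the gene under study (6 libraries). Paraquat-free libraries were not analysed here, and the dose is not given in the labels, so each difference below is one of genotype in treated mice. The labels give neither the prostate lobes taken nor the number of mice, and do not say whether any RNA was pooled.

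Zinc exporters of the Slc30a (ZnT) family move zinc out of the cytosol, into vesicles, the Golgi or the space outside the cell, and importers of the Slc39a (ZIP) family move it into the cytosol. The prostate is known for its high zinc content and for secreting zinc with citrate. Copper enters cells mainly through the high-affinity importer encoded by Slc31a1, and the ATPases encoded by Atp7a and Atp7b pump it into the secretory pathway or out of the cell. Iron enters on transferrin through the receptor encoded by Tfrc, crosses the endosomal membrane through the carrier encoded by Slc11a2, and leaves cells through ferroportin, encoded by Slc40a1.

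Values are the deposited normalized log2 values, with an estimated depth of 14.8 to 21.7 M reads per library, and each difference is null minus wild type on that scale. Clustering within each genotype gave sets of closely similar libraries, 1 to 3 and 4 to 6. Library pairs of 1 set had a median absolute difference over tested genes of 0.0776 to 0.141, against 0.274 to 0.352 for pairs from different sets of 1 genotype. Results are therefore given from limma over the 12 libraries, which treats each library as independent, and from limma over the 4 set means. The words rose and fell are used only where both gave an adjusted p under 0.05. Standard errors (SE) are those of the fit over the set means. All 8 prostate secretory markers passed the filter on low values, with summed levels of 20.59 to 21.10 (log2 of the sum) in wild type and 17.67 to 17.73 in the null. Over the 12 libraries 7 were called lower. Azgp1 was not called, and its difference from wild type was -0.68 for null libraries 1 to 3 and 0.43 for libraries 4 to 6. The 7 seminal vesicle markers summed to 5.75 to 7.81 in wild type. In the null the sums were 21.40 to 21.42 for libraries 1 to 3 but 16.82 to 16.85 for libraries 4 to 6, so the null sets stand apart from each other. These sums were carried by few genes, with Svs2 at 21.03 in null libraries 1 to 3 and 11.37 in libraries 4 to 6. Svs5, Svs6 and Pate4 were likewise higher in libraries 1 to 3, but Svs3a, Svs3b and Svs4 were higher in libraries 4 to 6. All 4 adipocyte markers were called higher over the 12 libraries, and their summed levels were 8.29 to 9.28 in wild type, up to 10.07 in null libraries 1 to 3 and up to 10.46 in null libraries 4 to 6. The luminal epithelium markers summed to 15.64 to 16.06 in wild type. Their sum was lower in the null, most in libraries 1 to 3 (15.25 to 15.26, against 15.61 to 15.62 in libraries 4 to 6). Of these 6 markers, 3 were called higher and 2 lower over the 12 libraries. All 4 fibroblast markers were called higher over the 12 libraries (sums of 13.05 to 13.34 in wild type and 13.45 to 13.81 in the null). So were 3 of 4 basal (11.44 to 11.92 and 12.04 to 12.58) and 3 of 4 endothelial markers (10.09 to 10.43 and 10.36 to 10.85). The remaining basal marker, Krt14 (-0.59), and the remaining endothelial marker, Emcn (-1.47), were called lower. Of 5 smooth muscle markers 3 were called lower (16.05 to 16.49 and 15.77 to 16.44). The part of these lists in the results below was not tested. In bulk tissue, fewer cells of a type and less RNA per cell cannot be told apart.

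Copper carriers stood highest among the metal transport genes in the null relative to wild type. Slc31a2 rose 2.11-fold, and Slc31a1 and Atp7a had higher values in every null library than in any wild-type library. Atp7b, the copper ATPase best known from liver, stayed between 2.19 and 4.12 in the 12 libraries and was not tested. Over the 26 tested genes, limma on all 12 libraries called 11 higher in the null and 8 lower. Of all 16197 tested genes, 34.1% were called higher and 31.8% lower by the same rule, so these counts alone say little about the carriers. When each library was scaled to its total, 14 were higher and 3 lower, against 53.2% and 16.1% of all tested genes. In both fits 1 carrier was called higher and 0 lower, against 2.15% and 1.93% of all tested genes. At an unadjusted p under 0.05 over the set means there were 5 higher and 3 lower, against 15.8% and 15.3% of all tested genes. Wild-type and null libraries had no overlap in 9 carriers that were higher and 8 that were lower, against 21.5% and 22.7% of all tested genes. Both null set means lay above both wild-type set means for 11 and below them for 8, against 34.8% and 32.4%. The median difference was 0.08 over the 26 genes and 0.05 over all tested genes. By role it was 1.08 for the 3 tested copper carriers, 0.63 for the 3 iron carriers, 0.08 for 8 zinc exporters and -0.11 for 12 zinc importers.

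**Figure D1:**
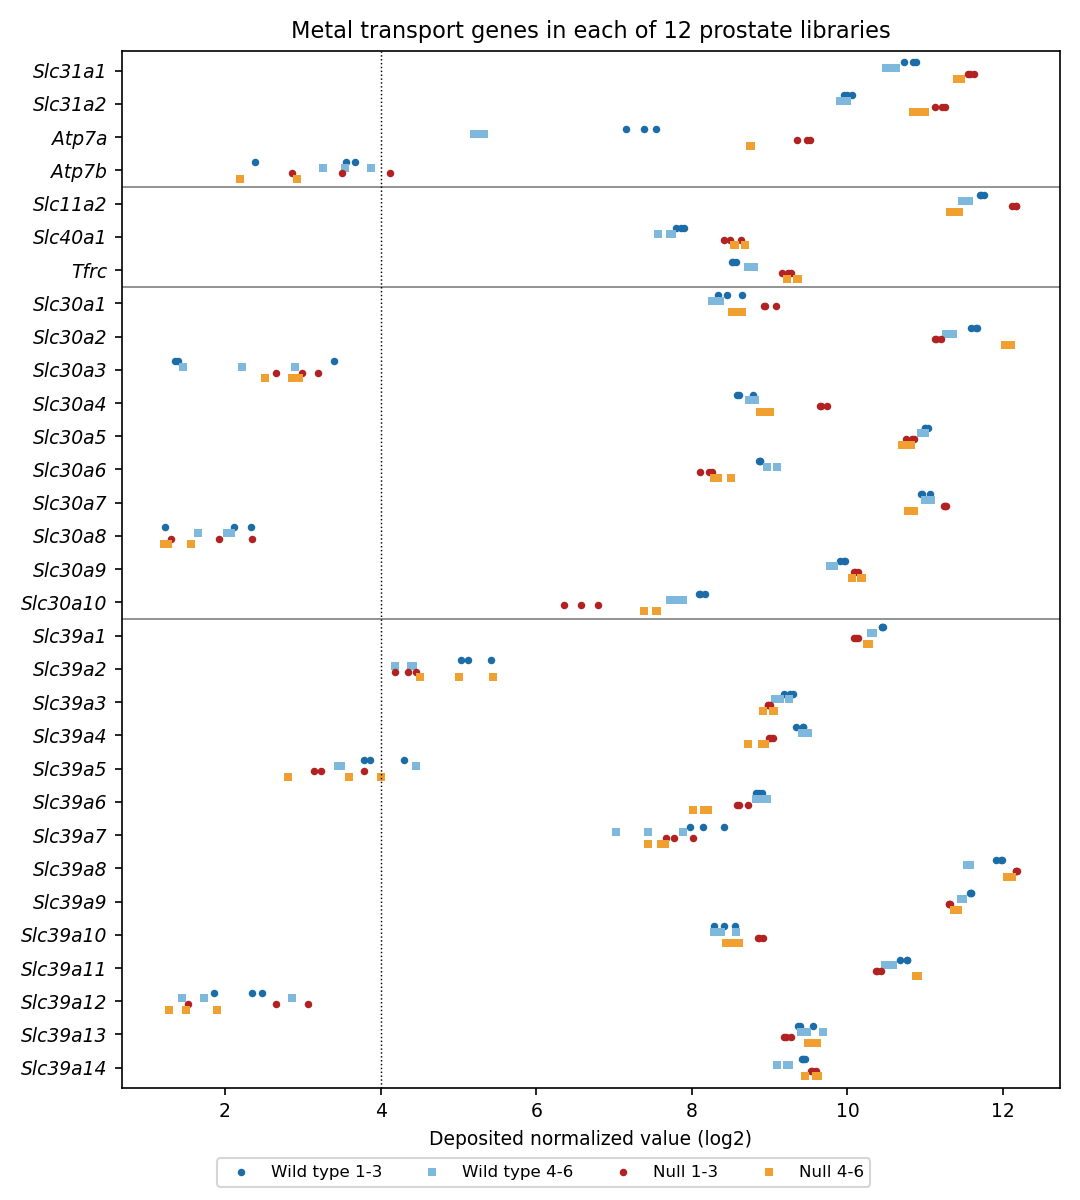
Deposited normalized value (log2, horizontal axis) of each of the 31 metal transport genes in each library, with copper, iron, zinc exporter and zinc importer genes separated by grey lines. Points are single libraries, coloured by genotype and set, and the dotted line marks the value of 4 used in the filter. Atp7a spans the widest range, from 5.20 to 9.52.

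**Figure D2:**
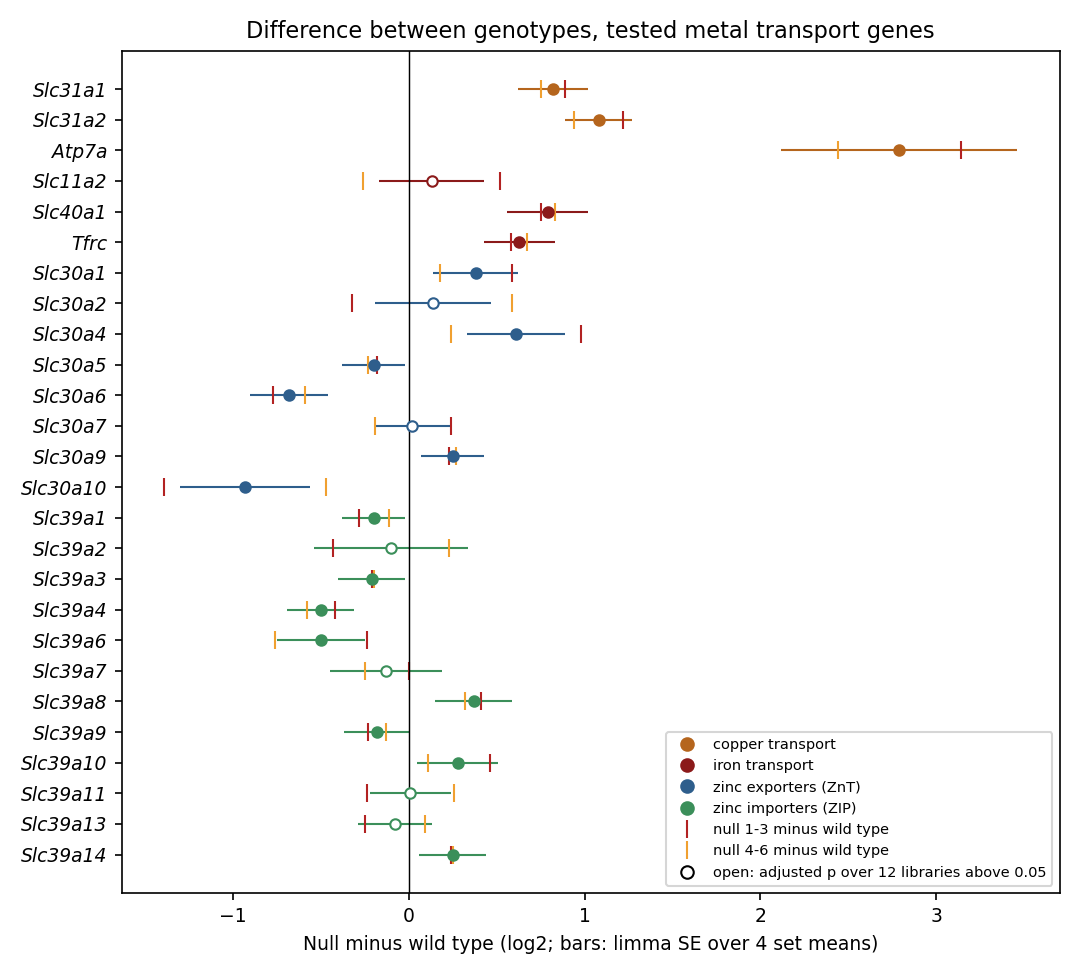
Difference between genotypes (null minus wild type, log2) of the 26 tested genes, with limma's SE over the 4 set means as bars. Ticks give the same difference for null libraries 1 to 3 and 4 to 6 alone, and open circles had an adjusted p above 0.05 over the 12 libraries. Atp7a (2.79), Slc31a2 (1.08) and Slc31a1 (0.82) have the highest differences, and Slc30a10 (-0.93) the lowest.

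Slc31a2 (ENSMUSG00000066152, GRCm38 chromosome 4, 62262562 to 62298411) encodes a relative of the copper importer that sits mainly on endosomes and lysosomes and is thought to influence how copper is stored. Its values were 9.95, 10.06 and 10.00 in wild-type libraries 1 to 3, and 10.00, 9.94 and 9.91 in wild-type libraries 4 to 6. In the null they were 11.21, 11.25 and 11.13 in libraries 1 to 3 and 10.93, 10.84 and 11.00 in libraries 4 to 6. The 2 wild-type sets were nearly level, and the lowest null library lay above the highest wild-type library. Slc31a2 rose by 1.08 (SE 0.19, limma adjusted p = 7.03e-08 for 12 libraries and 0.0373 for set means). With a set left out, its genotype has 1 set mean and the spread comes from the other genotype alone. The call over the set means was lost without null libraries 1 to 3 (0.94, adjusted p = 0.0761), without wild-type libraries 1 to 3 (1.11, adjusted p = 0.0898) or 4 to 6 (1.05, adjusted p = 0.244), with no filter on low values (adjusted p = 0.0501) and without limma's trend (adjusted p = 0.0785). Per kilobase of its longest transcript, Slc31a2 had the sixth highest level of the 31 genes in wild type (9.12 on the log2 scale per kilobase) and the highest in the null (10.20). In the null, the next mean levels per kilobase were Slc39a8 at 10.05 and Slc30a2 at 9.95, with SDs of 0.16 for Slc31a2, 0.06 and 0.50 (n = 6). Null libraries 4 to 6 minus 1 to 3 gave -0.27 for Slc31a2, -0.09 for Slc39a8 and 0.90 for Slc30a2. The order of these 3 therefore differed between the null sets, with Slc31a2 highest in libraries 1 to 3 and Slc30a2 in libraries 4 to 6. In wild type the order was Slc30a2 (9.82), Slc39a8 (9.68) and Slc11a2 (9.48), each within an SD of the next, then Slc39a1 and Slc39a11 (both 9.15), Slc31a2 and Slc39a9 (9.09), again close together. Atp7a, in contrast, was the 25th of the 31 in wild type (4.02 per kilobase on the log2 scale) and the 19th in the null (6.81).

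Slc31a1 (GRCm38 chromosome 4, 62360727 to 62391769) encodes the high-affinity copper importer of the plasma membrane. Wild-type values were 10.72, 10.88 and 10.84 in libraries 1 to 3 and 10.62, 10.49 and 10.57 in libraries 4 to 6. Null values were 11.55, 11.62 and 11.57 in libraries 1 to 3 and 11.45, 11.46 and 11.41 in libraries 4 to 6, all above wild type. The difference of 0.82 (SE 0.20) passed over the 12 libraries (limma adjusted p = 1.06e-06) and missed the threshold over the set means (adjusted p = 0.0708). It was 0.89 with null libraries 1 to 3 alone and 0.75 with null libraries 4 to 6 alone. The fit over set means gave an adjusted p of 0.0461 and 0.168 for these, each from 1 null set mean.

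The 2 copper importer genes lie on the same strand of chromosome 4 with Fkbp15 between them on the other strand. Fkbp15 differed by 0.15 (SE 0.18, limma adjusted p = 0.580 over the set means), and Cdc26, which overlaps Slc31a1 by 8116 bases on the other strand, by -0.17 (SE 0.21, adjusted p = 0.596). Of the further neighbours, Prpf4 differed by 0.18, Wdr31 by 0.00, Bspry by -0.26, Hdhd3 by -0.23, Alad by -0.39 and Zfp37, on the other side, by 0.52. Over the 12 libraries Fkbp15, Prpf4, Bspry, Alad and Zfp37 passed (adjusted p of 0.0113 to 0.0462), and over the set means none of the 8 neighbours did (adjusted p of 0.309 to 0.993). Whether the authors counted by strand is not known from the labels, so reads of Slc31a1 and Cdc26 in their shared stretch cannot be told apart.

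**Figure D3:**
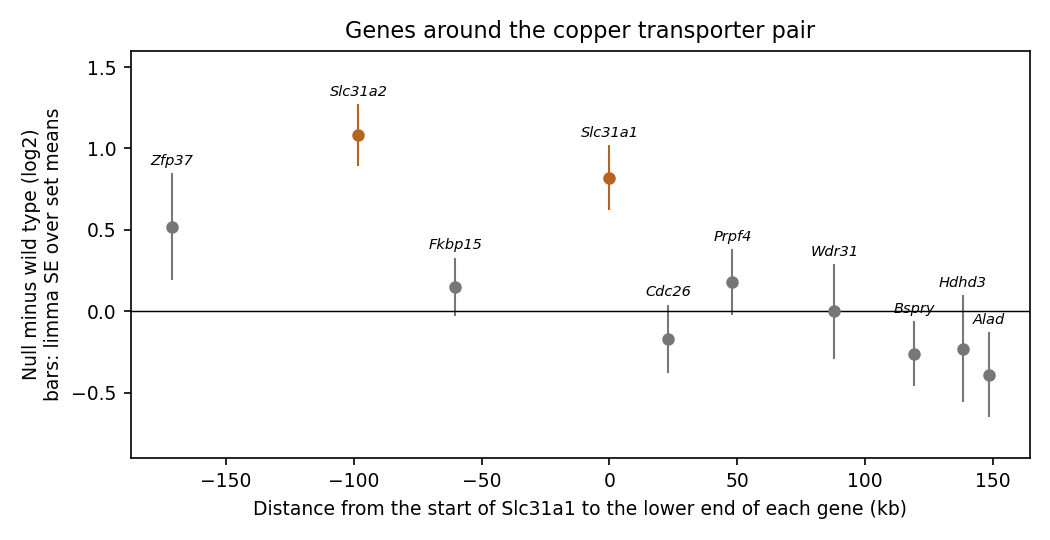
Difference between genotypes (null minus wild type, log2, with limma's SE over the set means) of tested genes on both sides of Slc31a1, by distance in kilobases. Slc31a2 (1.08) and Slc31a1 (0.82) stand above the other 8 genes, which run from -0.39 for Alad to 0.52 for Zfp37.

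Atp7a (GRCm38 chromosome X, 106027276 to 106124926) encodes the ATPase that loads copper onto secreted enzymes and exports it when copper is high. It had the largest difference of the 26 genes and also the least even wild-type values. They were 7.16, 7.39 and 7.54 in wild-type libraries 1 to 3 and only 5.20, 5.33 and 5.25 in libraries 4 to 6. In the null they were 9.35, 9.52 and 9.48 in libraries 1 to 3 and 8.75, 8.76 and 8.75 in libraries 4 to 6. Every null library was above every wild-type library, yet the wild-type sets differed by -2.11 (libraries 4 to 6 minus 1 to 3). The difference between genotypes was 2.79, or 6.91-fold (SE 0.67, with a limma adjusted p of 1.31e-04 for 12 libraries and 0.0716 for set means). It was 1.74 without wild-type libraries 4 to 6 (adjusted p = 0.187 over the set means) and 3.84 without wild-type libraries 1 to 3 (adjusted p = 0.0394). It was 2.44 without null libraries 1 to 3 (adjusted p = 0.0314) and 3.14 without null libraries 4 to 6 (adjusted p = 0.00351), but these rest on 1 null set mean with the spread of the wild-type sets alone. Without null libraries 4 to 6, 19.8% of all tested genes passed over the set means, against 4.09% with all sets. Its nearest tested neighbours, Cox7b on one side and Tlr13 on the other, differed by -0.68 (adjusted p = 6.39e-04 for 12 libraries and 0.134 for set means) and 0.93 (adjusted p = 4.28e-05 and 0.129), so both passed over the 12 libraries as Atp7a did. Only 1.23% of tested genes had a larger absolute difference than Atp7a. The share was 14% for Slc31a2, 24.8% for Slc31a1, 26.7% for Slc40a1 and 37.6% for Tfrc, so those differences were less unusual.

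The bases before the start sites of the copper genes are shown because the 3 were higher together and lie in 2 places of the genome. Sequences are those of RefSeq on GRCm38.p6, 250 bases up to the start site, and 25 of the 31 genes matched the table. Slc30a8, Slc39a4, Slc39a6, Slc39a14, Slc11a2 and Slc40a1 had no entry. Capitals mark the 7-letter core of the metal response element, TGCACNC or TGCGCNC on either strand, where overlapping matches would merge. The metal response element is the site to which the zinc-sensing transcription factor Mtf1 binds. The Slc31a2 window is chr4:62286179-62286428 (+ strand), and its start site lies 23867 bases from the start of the gene as annotated by GENCODE. The Slc31a1 window is chr4:62360451-62360700 (+ strand) and the Atp7a window is chrX:106026974-106027223 (+ strand).
Slc31a2: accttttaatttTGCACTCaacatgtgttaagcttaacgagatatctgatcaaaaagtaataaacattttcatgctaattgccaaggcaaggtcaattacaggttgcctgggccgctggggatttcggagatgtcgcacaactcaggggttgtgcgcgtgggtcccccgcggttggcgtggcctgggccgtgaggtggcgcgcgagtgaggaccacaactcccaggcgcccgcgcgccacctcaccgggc
Slc31a1: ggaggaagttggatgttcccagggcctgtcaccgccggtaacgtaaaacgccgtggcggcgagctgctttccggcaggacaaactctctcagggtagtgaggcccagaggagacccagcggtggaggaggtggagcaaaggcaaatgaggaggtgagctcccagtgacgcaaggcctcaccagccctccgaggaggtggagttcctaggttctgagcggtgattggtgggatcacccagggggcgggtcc
Atp7a: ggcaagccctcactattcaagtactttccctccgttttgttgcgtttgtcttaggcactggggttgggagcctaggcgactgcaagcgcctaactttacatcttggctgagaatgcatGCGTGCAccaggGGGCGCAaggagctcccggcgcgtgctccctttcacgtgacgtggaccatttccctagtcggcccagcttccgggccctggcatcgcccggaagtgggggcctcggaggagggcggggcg

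The core occurred 1 time before Slc31a2, 0 times before Slc31a1 and 2 times before Atp7a. Of the 25 matched genes 13 (52.0%) held at least 1 core, against 21.4% of 32851 promoter windows of the same length. Those windows were not matched to the carriers for base composition. With GG added after the core (TGCACNCGG or TGCGCNCGG), 2 genes held a match, Slc30a1 and Slc30a2, against 1.72% of all windows. Slc30a10 held 3 cores, and Slc30a2, Slc30a4, Atp7a and Tfrc held 2 each. Over the 12 libraries Slc30a10 was called lower, Slc30a4, Atp7a and Tfrc were called higher, and Slc30a2 was not called. Of all windows, 5.2% held 2 or more and 1.3% held 3 or more. Each carrier has 1 window, at the listed start nearest to the GENCODE start, which for Slc39a10 lay 32924 bases away. A match is only a stretch of letters, and no binding was measured.

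Among the iron carriers, Slc40a1 and Tfrc were higher in the null and Slc11a2 was split between the null sets. Slc40a1 (ferroportin, the iron exporter) ran from 7.56 to 7.90 in wild type and from 8.41 to 8.63 in null libraries 1 to 3, with libraries 4 to 6 at 8.54 to 8.68. The genotypes did not overlap and the null sets were alike. The difference was 0.79 (SE 0.23, limma adjusted p = 2.31e-06 for 12 libraries and 0.0944 for set means). Tfrc (transferrin receptor) ran from 8.51 to 8.80 in wild type and from 9.16 to 9.36 in the null, again without overlap, with a difference of 0.63 (SE 0.20, adjusted p = 6.49e-06 and 0.112). It was 0.36 once the trend with transcript length had been taken out of every library (adjusted p = 0.00590 over the 12 libraries), against 0.67 for Slc40a1 (adjusted p = 6.00e-06).

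Ferroportin is abundant in macrophages that recycle iron, and the transferrin receptor in red cell precursors and dividing cells, so their markers are given beside these values. Of 5 tested macrophage markers, 4 were called higher over the 12 libraries and 0 in both fits. Their summed levels were 9.95 to 10.26 in wild type and 10.63 to 10.74 in null libraries 1 to 3, with libraries 4 to 6 at 10.90 to 11.03, and Marco was under 4 in every library. Of 5 tested erythroid markers 1 was called higher, Alas2, by 0.80, while the 4 globin genes differed by -0.60 to -0.23 and none was called (limma adjusted p of 0.17 to 0.476 over the 12 libraries). The median of the 5 was -0.30. Of 4 markers of proliferating cells 2 were higher and 1 lower over the 12 libraries, with sums of 9.19 to 9.56 in wild type and 9.36 to 9.52 in the null. The part of the macrophage markers in the Slc40a1 result was not tested.

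Slc11a2 (the divalent metal carrier DMT1) had the third highest level per kilobase in wild type (9.48). Values were 11.72, 11.75 and 11.70 in wild-type libraries 1 to 3 and 11.56, 11.51 and 11.47 in libraries 4 to 6. They were 12.11, 12.17 and 12.16 in null libraries 1 to 3 and 11.43, 11.32 and 11.34 in null libraries 4 to 6. The null sets thus lay on opposite sides of wild type, by 0.52 and -0.26, and the overall difference of 0.13 passed neither test (limma adjusted p = 0.488 for 12 libraries and 0.772 for set means).

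**Figure D4:**
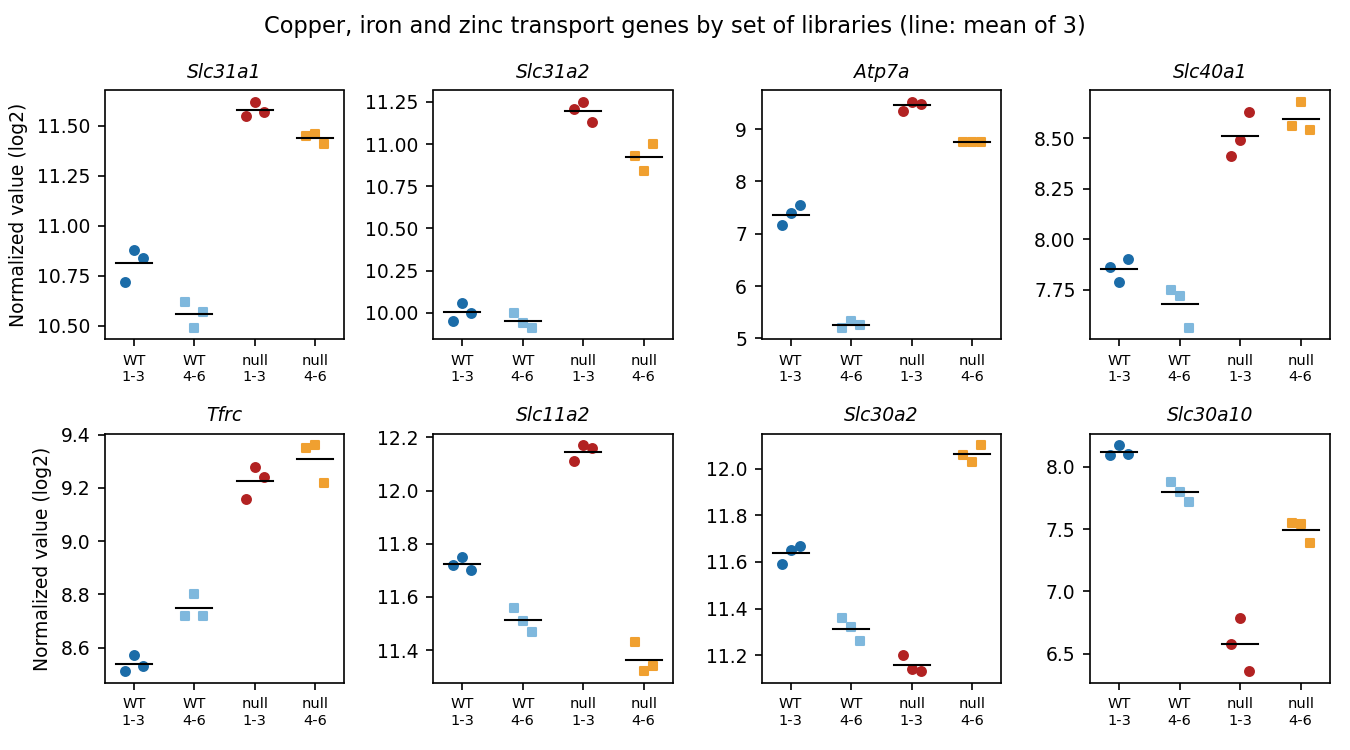
Normalized values (log2, vertical axes of different range) of 8 carriers in the 3 libraries of each set, with lines at the set means. Slc31a1, Slc31a2, Atp7a, Slc40a1 and Tfrc are higher in both null sets than in both wild-type sets. Slc11a2 and Slc30a2 have the null sets on opposite sides of wild type, and Slc30a10 is lowest in null libraries 1 to 3 (6.36 to 6.79).

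The zinc exporters differed in both directions. Over the 12 libraries limma called 3 of the 8 tested higher (Slc30a1, Slc30a4 and Slc30a9) and 3 lower (Slc30a5, Slc30a6 and Slc30a10), and 0 in both fits. Slc30a3, which fills synaptic vesicles with zinc, and Slc30a8, which supplies insulin granules, were listed at 1.22 to 3.40 in every library and not tested. The summed level over all 10 exporters was 13.12 to 13.27 in wild type and 13.18 to 13.35 in the null, ranges that overlap.

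Slc30a2 (ZnT2), which moves zinc into vesicles and is known for supplying zinc to milk, had the highest level per kilobase of the 31 genes in wild type (9.82). Values were 11.59, 11.65 and 11.67 in wild-type libraries 1 to 3 and 11.36, 11.32 and 11.26 in libraries 4 to 6. In the null they were 11.20, 11.14 and 11.13 in libraries 1 to 3 and 12.06, 12.03 and 12.10 in libraries 4 to 6. The lowest and the highest set were both null, with wild type between them, and the difference of 0.14 passed neither test (SE 0.33, limma adjusted p = 0.548 and 0.791). Slc30a2 was lower, and Slc11a2 higher, in null libraries 1 to 3, where Svs2 and the summed seminal vesicle level were higher and Svs3a and Svs4 lower than in libraries 4 to 6. The part of those transcripts in either split was not tested.

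Slc30a10 encodes an exporter now known chiefly for manganese. It ran from 7.72 to 8.17 in wild type and from 7.39 to 7.55 in null libraries 4 to 6, with libraries 1 to 3 at 6.36 to 6.79. The groups did not overlap, but the null sets differed from each other by 0.92. The difference between genotypes was -0.93 (SE 0.37, limma adjusted p = 0.00171 for 12 libraries and 0.153 for set means). It was -0.47 without null libraries 1 to 3 and -1.39 without null libraries 4 to 6 (adjusted p = 0.0203 over set means, from the lower null set alone and with the spread of the wild-type sets). Slc30a4 (ZnT4), a vesicle exporter whose loss leaves mouse milk short of zinc, was likewise uneven, at 8.58 to 8.81 in wild type and with a mean of 8.95 in null libraries 4 to 6, while libraries 1 to 3 were at 9.65 to 9.74. Its difference was 0.61 (SE 0.28, adjusted p = 0.00404 and 0.196), and 0.24 for null libraries 4 to 6 alone.

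Slc30a5, Slc30a6 and Slc30a7 (ZnT5, ZnT6 and ZnT7) bring zinc into the early secretory pathway, where the first pair works as a complex of both proteins. Slc30a6 ran from 8.86 to 9.10 in wild type and from 8.11 to 8.50 in the null, with both null sets below both wild-type sets. Its difference of -0.68 (SE 0.22, limma adjusted p = 9.74e-06 and 0.108) was of like size in both null sets (-0.77 and -0.59). Slc30a5 differed by -0.20 (SE 0.18, adjusted p = 0.00174 and 0.449), at 10.94 to 11.04 in wild type and 10.70 to 10.85 in the null. Slc30a7 ran from 10.95 to 11.07 in wild type and lay above that range in null libraries 1 to 3 (11.24 to 11.26) and below it in null libraries 4 to 6 (10.78 to 10.85). Slc30a9, linked to zinc export from mitochondria, differed by 0.25 (SE 0.18, adjusted p = 0.00132 and 0.363), with 9.78 to 9.97 in wild type and 10.06 to 10.19 in the null.

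Slc30a1 (ZnT1) exports zinc across the plasma membrane and is, with the metallothionein genes Mt1 and Mt2, a textbook target of Mtf1. It ran from 8.26 to 8.64 in wild type and from 8.93 to 9.08 in null libraries 1 to 3, with libraries 4 to 6 at 8.51 to 8.64, which reach into the wild-type range. The difference was 0.38 (SE 0.24, limma adjusted p = 0.00734 for 12 libraries and 0.302 for set means). Mt1 fell by 3.50 (SE 0.33) and Mt2 fell by 3.35 (SE 0.28), with a limma adjusted p for set means of 0.00800 and 0.00696 and with all null libraries of each below all wild-type libraries. Mtf1 itself differed by 0.17 and passed neither test (adjusted p = 0.105 and 0.617). The Slc30a1 and Mt2 windows are printed to show these letters in 2 genes whose values went different ways, Slc30a1 at chr1:191906531-191906780 (+ strand) and Mt2 at chr8:94172368-94172617 (+ strand), with the core in capitals as above.
Slc30a1: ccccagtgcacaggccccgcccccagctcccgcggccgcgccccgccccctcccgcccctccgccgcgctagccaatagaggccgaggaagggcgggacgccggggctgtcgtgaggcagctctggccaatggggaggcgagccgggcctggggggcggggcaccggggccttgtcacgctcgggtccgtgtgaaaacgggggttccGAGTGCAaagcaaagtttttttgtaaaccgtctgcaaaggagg
Mt2: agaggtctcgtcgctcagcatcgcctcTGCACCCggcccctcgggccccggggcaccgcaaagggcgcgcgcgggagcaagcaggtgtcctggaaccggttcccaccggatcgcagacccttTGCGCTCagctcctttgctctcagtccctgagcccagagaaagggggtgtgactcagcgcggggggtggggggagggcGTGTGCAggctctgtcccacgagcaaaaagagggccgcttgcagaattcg
The core was found 1 time before Slc30a1 and 3 times before Mt2, and in each gene 1 match was followed by GG.

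Of the 12 tested zinc importers, 3 were called higher over the 12 libraries (Slc39a8, Slc39a10 and Slc39a14), 5 lower (Slc39a1, Slc39a3, Slc39a4, Slc39a6 and Slc39a9) and 0 in both fits. Slc39a5 and Slc39a12 were at 1.28 to 4.46 and not tested. The differences were small, from -0.50 to 0.37, and the summed level over the 14 importers was 13.57 to 13.78 in wild type and 13.67 to 13.74 in the null.

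Slc39a8 (ZIP8) and Slc39a14 (ZIP14) encode close relatives that carry manganese and iron as well as zinc. Slc39a8 had the second highest level per kilobase in both genotypes (9.68 and 10.05). It was at 11.98, 11.97 and 11.91 in wild-type libraries 1 to 3, at 11.54, 11.57 and 11.58 in libraries 4 to 6, at 12.18, 12.16 and 12.17 in null libraries 1 to 3 and at 12.12, 12.05 and 12.07 in null libraries 4 to 6. Every null library lay above wild type, and the null sets were almost level. Slc39a8 differed by 0.37 (SE 0.22, limma adjusted p = 0.00285 for 12 libraries and 0.292 for set means). Slc39a14 differed by 0.25 (SE 0.19, adjusted p = 0.00752 and 0.404), with 9.09 to 9.45 in wild type and 9.46 to 9.62 in the null, groups that met but did not overlap.

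Slc39a6 and Slc39a10 (ZIP6 and ZIP10) encode importers that form a complex with each other, and their transcripts had opposite signs. Slc39a6 ran from 8.83 to 8.97 in wild type and from 8.58 to 8.72 in null libraries 1 to 3, with libraries 4 to 6 at 8.01 to 8.21, a difference of -0.50 (SE 0.25, limma adjusted p = 0.00213 and 0.217). Slc39a10 ran from 8.28 to 8.57 in wild type and from 8.85 to 8.92 in null libraries 1 to 3, with libraries 4 to 6 at 8.44 to 8.60, a difference of 0.28 (SE 0.23, adjusted p = 0.0214 and 0.412). With the length trend taken out Slc39a10 differed by -0.05, and the opposite signs were then lost.

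Slc39a4 (ZIP4), the zinc importer of the intestine, ran from 9.34 to 9.49 in wild type and from 8.72 to 9.04 in the null, a difference of -0.50 (SE 0.19, limma adjusted p = 2.42e-05 and 0.146) that was of like size in both null sets (-0.42 and -0.58). The plasma membrane importers Slc39a1 and Slc39a3 (ZIP1 and ZIP3) differed by -0.20 and -0.21, and Slc39a9 (ZIP9), a Golgi importer also described as a membrane androgen receptor, by -0.18. For these 3 the libraries of the genotypes did not overlap, and the adjusted p was 0.00662 to 0.00891 for 12 libraries and 0.475 to 0.528 for set means. Under the scaling to library totals all 3 had the other sign (0.12, 0.11 and 0.14). That scaling moved the median difference of all tested genes from 0.05 to 0.37, so the 3 were below that median under either scaling. Slc39a2, Slc39a7, Slc39a11 and Slc39a13 were within 0.13 of 0, and their adjusted p over the 12 libraries ran from 0.451 to 0.928. Slc39a7 (ZIP7), which releases zinc from the endoplasmic reticulum, was uneven among wild-type libraries (7.03 to 8.41).

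Transcript length moved with the genotype difference over all genes, and the tested carriers were longer than most, with a median of 4077 bases against 3066 for all tested genes. After the length trend had been taken out of every library, 6 carriers were called higher over the 12 libraries. Slc31a1 was at 0.68, Slc31a2 at 1.30 and Atp7a at 2.52, and the others were Slc40a1, Tfrc and Slc39a8 (0.21). Slc30a1 (0.07), Slc30a4 (0.27), Slc30a9 (-0.11), Slc39a10 (-0.05) and Slc39a14 (-0.05) were no longer called. Annotated genes overlap 15 of the 31 carriers, 12 of them on the other strand, among them Psmc3 over 4579 bases of Slc39a13.

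Of the genes that bind, chaperone, reduce or oxidize these metals, 52 were listed and 45 tested. Over the 12 libraries 14 were called higher and 20 lower, against 34.1% and 31.8% of all tested genes, with a median difference of -0.04. In both fits 4 were higher and 4 lower, against 2.15% and 1.93% of all tested genes. The 4 that rose were Cp and Heph, encoding the copper-dependent ferroxidases ceruloplasmin and hephaestin that act with ferroportin, and Lcn2 and Ltf, encoding the iron-binding defence proteins lipocalin 2 and lactoferrin. Cp rose by 1.54, from 9.36 ± 0.09 to 10.91 ± 0.08 (SD, n = 6 libraries each; SE 0.18, limma adjusted p = 0.0134 for set means). Heph rose from 6.12 ± 0.22 to 7.62 ± 0.14 (SE 0.28, adjusted p = 0.0417). Lcn2 rose by 2.73 (adjusted p = 0.0107) and Ltf by 5.52 (adjusted p = 0.0259), the latter from unequal wild-type sets at 4.48 and 2.14. The 4 that fell were Mt1, Mt2, Mt3 (fell by 5.56, adjusted p = 0.00583) and Steap1, of a family of metal reductases (fell by 2.38, adjusted p = 0.0331). Others of that family, Steap2 (0.39), Steap3 (0.72) and Steap4 (2.25), were called higher over the 12 libraries but not over the set means.

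Some genes of copper delivery and iron storage were lower over the 12 libraries without passing over the set means. Atox1, which hands copper to Atp7a and Atp7b, differed by -0.82 (limma adjusted p = 8.90e-04 for 12 libraries and 0.125 for set means), and Ccs, which loads superoxide dismutase, by -0.47 (adjusted p = 0.00140 and 0.191). Of the other tested copper delivery genes, which serve cytochrome oxidase, Cox19 (-0.79) and Sco1 (-0.37) were called lower over the 12 libraries, and Cox17 (0.16) and Cox11 (0.03) were not called. The ferritin genes Fth1 and Ftl1 differed by -0.90 (adjusted p = 2.71e-05 and 0.154) and -0.71 (adjusted p = 8.92e-06 and 0.0988). Ireb2, whose protein controls ferritin and transferrin receptor messages by the iron supply, differed by -0.13 (adjusted p = 0.0840 and 0.652). Aco1, listed beside it, had the other sign at 0.26 and was called higher over the 12 libraries only (limma adjusted p = 0.0133 and 0.403). The genes named here were chosen after their values were seen, as was Mtf1 above.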

How the data were processed

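Prostate RNA was selected for poly-A and sequenced from TruSeq libraries on a HiSeq2000, per the labels' protocols. Per the submitters' processing notes, TopHat, Cufflinks, DESeq and CASAVA 1.8.2 were used, with mm9 and GRCm38.p2 as builds and no role stated. Counting, its strand setting and any pooling were not stated in the labels. The deposited table holds log2 values normalized by the authors between libraries and not per length. They run from -0.28 to 21.24, and how zero or low counts were transformed is not known, so fold changes of low genes are the least certain.

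IDs were matched to GENCODE M21 (GRCm38), with 96.2% found, and each gene took the length of its longest transcript. Depth was estimated from the factor that turned 2 to the power of the value into whole numbers (within 0.1). Libraries of a set still differed by more than sampling noise (median chi-square 0.667 to 2.80 over genes, against 0.455) and were not merged for the fit over 12 libraries. As the table holds no counts, limma 3.58.1 (trend, two-sided, R 4.3.3) replaced the planned count test, with Benjamini-Hochberg adjustment over all genes that reached 4 in 6 or more libraries. No carrier passed that filter through 1 genotype alone. The script was checked on simulated data. Figures were drawn with Python 3.11.15.

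The 31 genes and all lists were chosen with earlier results of these data known. Alternatives were other scalings, filters, thresholds, variance models, the set as a random block, a damped log2 scale, removal of the length trend and leaving out each library or set. Named genes are all 31, then the listed metal genes called in both fits, and other listed metal genes named after their values were seen. The values of the targeted gene are not reported here. The labels do not say which libraries came from separate mice, so p-values measure only the spread between these libraries, which may be technical.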

Additional observations from a re-analysis of the deposited data

How the results depend on the processing

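Over the 12 libraries, 11 carriers were called higher and 8 lower. With the set as a random block these counts were 7 and 3 (14.1% and 17.1% of all tested genes), and with the length trend removed 6 were higher (29.7% of all). With library totals 3 were lower (16.1% of all). With totals without the 50 most abundant genes, upper-quartile centring or quantile normalization 5 were lower (29.1%, 27.9% and 34.3% of all). Leaving out 1 library gave 10 to 11 higher and 8 lower. In both fits 1 was higher and 0 lower, also without any 1 library. That count was 0 with no filter on low values, at an adjusted p of 0.01, without limma's trend or without wild-type libraries 4 to 6. It was 2 with quantile normalization or without the 50 most abundant genes in the totals, and 5 with library totals. Over the set means, 4.74%, 6.08% and 12% of all tested genes passed under these 3 settings, against 4.09% with the deposited scaling. Without wild-type libraries 1 to 3, or null libraries 1 to 3, the 1 gene called was Atp7a in place of Slc31a2. The calls in both fits also changed without null libraries 4 to 6. They then took in Slc30a4 (0.98) as higher and Slc30a10 (-1.39) as lower, resting on 1 null set mean. With a set left out, the lone set mean is assumed to vary like the other genotype's.

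The median difference of 0.08 was 0.26 without wild-type libraries 1 to 3, 0.00 (just under 0) without libraries 4 to 6, 0.39 with library totals, 0.15 with upper-quartile centring, 0.22 with quantile normalization and -0.03 with the length trend removed. It was 0.05 to 0.10 without 1 library. The cause was not tested.

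Of the 26 genes 12 kept their direction under all settings run, all of them called over the 12 libraries. Slc30a2 reversed without wild-type libraries 4 to 6 (-0.03) or null libraries 4 to 6 (-0.32). Library totals reversed Slc30a5 (0.11), Slc39a1 (0.12), Slc39a2 (0.22), Slc39a3 (0.11), Slc39a7 (0.19), Slc39a9 (0.14) and Slc39a13 (0.23), and quantile normalization reversed Slc39a9 (0.04). Removing the length trend reversed Slc30a7 (-0.55), Slc30a9 (-0.11), Slc39a2 (0.00), Slc39a10 (-0.05), Slc39a13 (0.03), Slc39a14 (-0.05) and Slc11a2 (-0.06). Without null libraries 1 to 3, Slc30a7 (-0.19), Slc39a2 (0.23), Slc39a13 (0.09) and Slc11a2 (-0.26) reversed, and without null libraries 4 to 6 Slc39a7 (0.00) and Slc39a11 (-0.24). Without wild-type libraries 1 to 3, Slc30a7 (0.00), Slc39a2 (0.33) and Slc39a7 (0.24) reversed, and without libraries 4 to 6 Slc39a11 (-0.09). Over the settings that leave out 1 library, Slc30a7 ran from -0.02 to 0.07, Slc39a2 from -0.25 to 0.03 and Slc39a11 from -0.04 to 0.07, and array weights reversed Slc39a11 (-0.03). No paired analysis was possible because the labels carry no replicate numbers.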

Other observations

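Apart from Atp7a, other listed metal genes differed widely between the wild-type sets and were named after their values were seen. Steap4, of the metal reductase family, was at 7.55 in wild-type libraries 1 to 3 and 5.94 in libraries 4 to 6, and at 8.66 and 9.34 in the null sets. Ncoa4, whose protein delivers ferritin for breakdown, was at 9.08 and 7.93 in the wild-type sets and 9.16 and 9.31 in the null sets. Hfe, which regulates iron sensing, was instead split in the null, at 9.06 in libraries 1 to 3 and 10.10 in libraries 4 to 6, against 9.03 and 8.92 in wild type.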
